A study of Mus musculus with 5 samples.

Results

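The open chromatin around 3 genes of the Sall family, Sall1, Sall3 and Sall4, was examined in the anterior forelimb bud of mouse embryos with and without Cre-mediated loss of Smarcc1. Members were all regions of the merged peak lists that lay in the gene body or within 150 kb of either side of it, in mm10 coordinates. Of 86713 regions in the series, 80 were members: 14 around Sall1, 23 around Sall3 and 43 around Sall4. Within each window regions were taken by position, whatever their values, and all 80 are accounted for below. The assay was ATAC-seq, in which a transposase inserts adapters into open chromatin. For each library 50K cells were taken from the anterior forelimb pair of 1 embryo at E11.5 (40 to 48 somites), 5 libraries in all. The 2 control embryos were Prx+/+;Smarcc1c/c, homozygous for the conditional Smarcc1 allele and without Cre. The 3 mutant embryos were PrxCre/+;Smarcc1c/c, with the same allele and 1 copy of the Prx-Cre driver. The driver acts in limb mesenchyme, so ectoderm, vessels, blood and immigrant muscle precursors of the same bud keep the allele intact. No control carried the driver without the conditional allele, so effects of the Cre transgene and of Smarcc1 deletion cannot be told apart. The Smarcc1 protein, BAF155, belongs to the core of the BAF remodelling machinery, which moves and evicts nucleosomes, and the title of the series ties BAF to repression by GLI proteins.

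Sall proteins are zinc finger transcription factors related to Drosophila spalt. Their N terminus carries a short motif that recruits the NuRD corepressor complex, and several of them act mainly as repressors. Human SALL1 is mutated in Townes-Brocks syndrome and human SALL4 in Duane-radial ray syndrome, both with malformed thumbs or radial rays. In the forelimb Sall4 is known as a target and partner of Tbx5, and Sall1 has been described as a gene that responds to Hedgehog signalling in the limb. Sall1 and Sall3 have overlapping roles in digit patterning.

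RefSeq promoter windows on GRCm38.p6, which has the coordinates of mm10, were found for 1 of the 3 genes, Sall1, and not for Sall3 and Sall4. Each window holds 250 bases before and 50 after an annotated start. The 3 windows of Sall1, all on the minus strand of chromosome 8, are shown because the strongest region around this gene covers all of them. The first window lies at chr8:89044113-89044412, the next at chr8:89043463-89043762 and the last at chr8:89042813-89043112. Capitals mark CpG dinucleotides.

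Sall1 start a: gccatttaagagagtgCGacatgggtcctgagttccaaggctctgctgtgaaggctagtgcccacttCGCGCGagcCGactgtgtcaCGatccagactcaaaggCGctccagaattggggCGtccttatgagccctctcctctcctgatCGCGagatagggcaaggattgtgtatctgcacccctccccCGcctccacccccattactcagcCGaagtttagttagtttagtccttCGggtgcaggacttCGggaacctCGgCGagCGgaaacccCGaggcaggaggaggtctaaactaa
Sall1 start b: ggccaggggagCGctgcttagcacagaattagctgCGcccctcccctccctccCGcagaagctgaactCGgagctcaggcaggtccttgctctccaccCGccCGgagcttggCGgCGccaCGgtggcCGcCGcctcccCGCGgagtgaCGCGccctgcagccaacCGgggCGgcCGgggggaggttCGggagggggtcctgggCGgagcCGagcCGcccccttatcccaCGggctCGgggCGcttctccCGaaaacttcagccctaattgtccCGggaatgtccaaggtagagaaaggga
Sall1 start c: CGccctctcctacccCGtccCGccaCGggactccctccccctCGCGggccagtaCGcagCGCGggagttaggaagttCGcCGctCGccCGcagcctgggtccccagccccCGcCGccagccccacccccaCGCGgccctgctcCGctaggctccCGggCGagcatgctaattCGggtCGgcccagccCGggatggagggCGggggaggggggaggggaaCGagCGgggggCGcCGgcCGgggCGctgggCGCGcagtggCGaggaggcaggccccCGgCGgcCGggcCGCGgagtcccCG

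The windows held 18, 27 and 39 CpG, against a median of 7 over all 32851 windows, and had GC contents of 57.3%, 70% and 79.7% against a median of 52.7%. Thus the start region of Sall1 is rich in CpG, most of all at the last of its starts, and 95.55% of all windows held fewer CpG than that one. Peaks covered all 300 bases of every Sall1 window in both controls and in mutants 1 and 2. In mutant 3 they covered the other windows fully and 223 of 300 bases of the first. The GLI motif GACCACCCA (TGGGTGGTC on the other strand) was found in none of the 3 windows and in 0.253% of all windows. The T-box motif AGGTGTGA (TCACACCT) was also not found in them and occurred in 1.28% of all windows.

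The measurement is a called peak and its fold, the authors' own value of enrichment over background at the summit within 1 list. Folds are not scaled between lists, so they describe regions within a library, and libraries are compared by the presence of a peak and by ranks over a common set. The lists held 68959 and 60333 peaks in the controls and 27194 to 42794 in the mutants on chromosomes 1 to 19 and X. Read numbers are unknown, but the grid of the fold values gave a background of 4.77 and 6.42 fragments per position for the controls and of 5.48, 5.09 and 4.95 for the mutants. A peak needed at least 13 to 16 fragments, which is a fold of 2.29 to 2.52, and regions without a peak may still be open below that level. In the results below, open in a library means only that a peak was called there. Markers of limb mesenchyme had a peak within 1 kb of a gene end for 7 of 7 genes in both controls and for 7, 6 and 5 in mutants 1, 2 and 3. Of those markers Prrx1, the gene whose regulatory sequence drives the Cre, stood out after its values were seen. The region at its end (chromosome 1, 163311186 to 163316279) had folds of 9.54 and 9.30 in the controls against 22.7, 22.7 and 18.5 in the mutants. Among regions with a peak in all libraries it stood at percentiles of 70.7 and 73.4 in the controls against 99.95, 99.94 and 99.89 in the mutants, so every mutant ranked above both controls there. Of 4 muscle precursor markers 4 and 3 had a peak in the controls against 1, 3 and 0 in the mutants, and of 5 ectoderm markers 3 and 4 had one in the controls and 2 in each mutant. The muscle precursor peaks of the controls had folds of only 2.83 to 3.81. The share of all genes with such a peak is not given here, so the marker counts have no background beside them. Of the other lists, 2 of 4 blood markers (Klf1 and Spi1) had a peak in every library, 4 and 3 of 4 neural crest and glia markers had one in the controls against 3, 4 and 3 in the mutants, and of 4 endothelial markers 2 and 1 had one in the controls and 1 (Kdr) in each mutant. Both hindlimb markers had one in every library but mutant 3. Trp63, Cdh5, Pecam1, Gata1 and Hba-a1 had no such peak in any library. The part of these other cells, and of the Prrx1 sequence, in the results below was not tested. At the Prrx1 region, fragments from transgene copies of Prrx1 sequence, which only mutants can carry, cannot be told apart from more open chromatin. A weaker peak in such mixed cells of the anterior forelimb can come from fewer cells with the region open or from less opening per cell, which these data cannot tell apart.

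Fewer peaks were called around each of the 3 genes in mutants on average, and for Sall1 and Sall4 the groups did not overlap. Around Sall1 controls 1 and 2 had 12 and 10 peaks, and mutants 1, 2 and 3 had 9, 7 and 3. All 3 mutants lay below both controls, with means of 11 ± 1.4 and 6.33 ± 3.1 (SD, n = 2 and 3) and p = 0.2 in an exact permutation test, two-sided. Around Sall3 there were 17 and 10 peaks in the controls against 12, 8 and 5 in the mutants. Here mutant 1 lay above control 2, so the groups overlapped, and the difference of -5.17 peaks (13.5 ± 4.9 against 8.33 ± 3.5, SD, n = 2 and 3) gave an exact permutation p of 0.4. Around Sall4, which had the most peaks, there were 31 and 25 in the controls against 18, 18 and 16 in the mutants. The means were 28 ± 4.2 and 17.3 ± 1.2 (SD, n = 2 and 3), 38.1% lower, with an exact permutation p of 0.2. That is the smallest p that 2 against 3 libraries allow, so none of the 3 comparisons could pass 0.05. Over the series 50.7% of 19918 protein-coding genes with a peak in the same window had fewer peaks in all mutants than in both controls, and 0.0251% had more, so 2 of 3 Sall genes with fewer peaks is near the background. The difference at Sall1 was -3 without mutant 3. The Sall1 groups overlapped within 50 kb (-2.33 peaks, exact permutation p = 0.6) and with only peaks of a −log10 q, the adjusted significance in the authors' lists, of at least 5 (-3.33, exact permutation p = 0.4). At Sall3 the difference was -1.67 without control 1 and -8.67 without control 2, and the groups did not overlap without control 2 or without mutant 1. With every list shortened to its 27194 strongest peaks the differences were 0.5 at Sall1, -1 at Sall3 and 1.5 at Sall4, and no gene had all mutants below both controls.

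**Figure D1:**
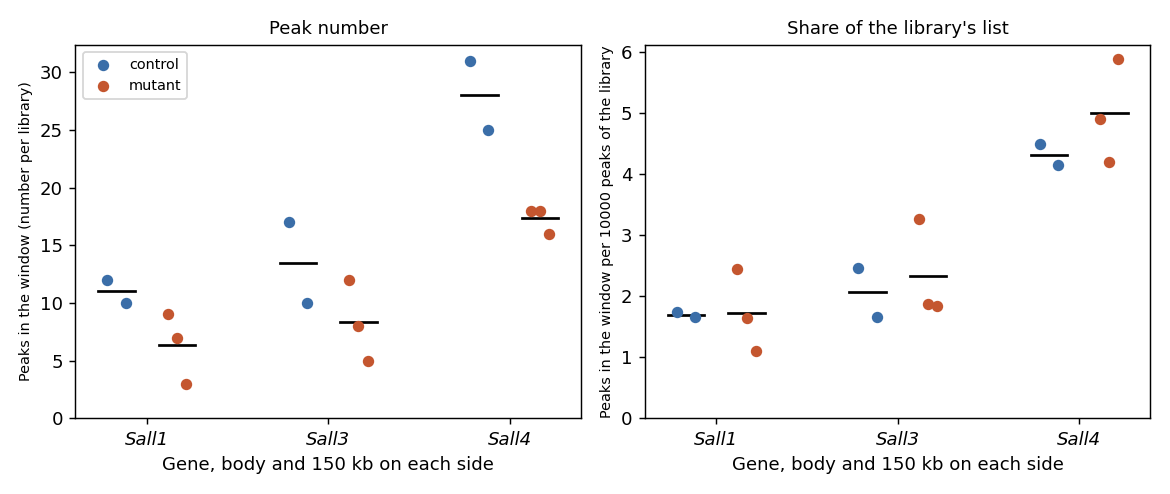
Number of peaks (left) and peaks per 10000 peaks of the library (right) in the window of each Sall gene, 1 point per library, with controls in blue, mutants in orange and a black line at the group mean. Peak numbers at Sall1 and Sall4 are lower in all 3 mutants than in both controls, while the shares of the lists overlap at all 3 genes.

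As a share of each list, the mutant mean was above the control mean at all 3 Sall genes, with overlapping groups. Sall1 had 1.74 and 1.66 peaks per 10000 in the controls against 2.45, 1.64 and 1.10 in the mutants (difference 0.0312, exact permutation p = 1.0, n = 2 and 3). Sall3 had 2.47 and 1.66 in the controls against 3.27, 1.87 and 1.84 in the mutants (difference 0.264, exact permutation p = 0.8, n = 2 and 3). Sall4 had 4.50 and 4.14 in the controls against 4.90, 4.21 and 5.88 in the mutants (difference 0.678, exact permutation p = 0.4, n = 2 and 3). Mutant 3, with the shortest list, had the lowest share of the 5 libraries at Sall1 and the highest at Sall4. Shares were lower in all mutants than in both controls at 11.1% of all genes and higher in all at 38.3%, and no Sall gene was in either class.

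**Figure D2:**
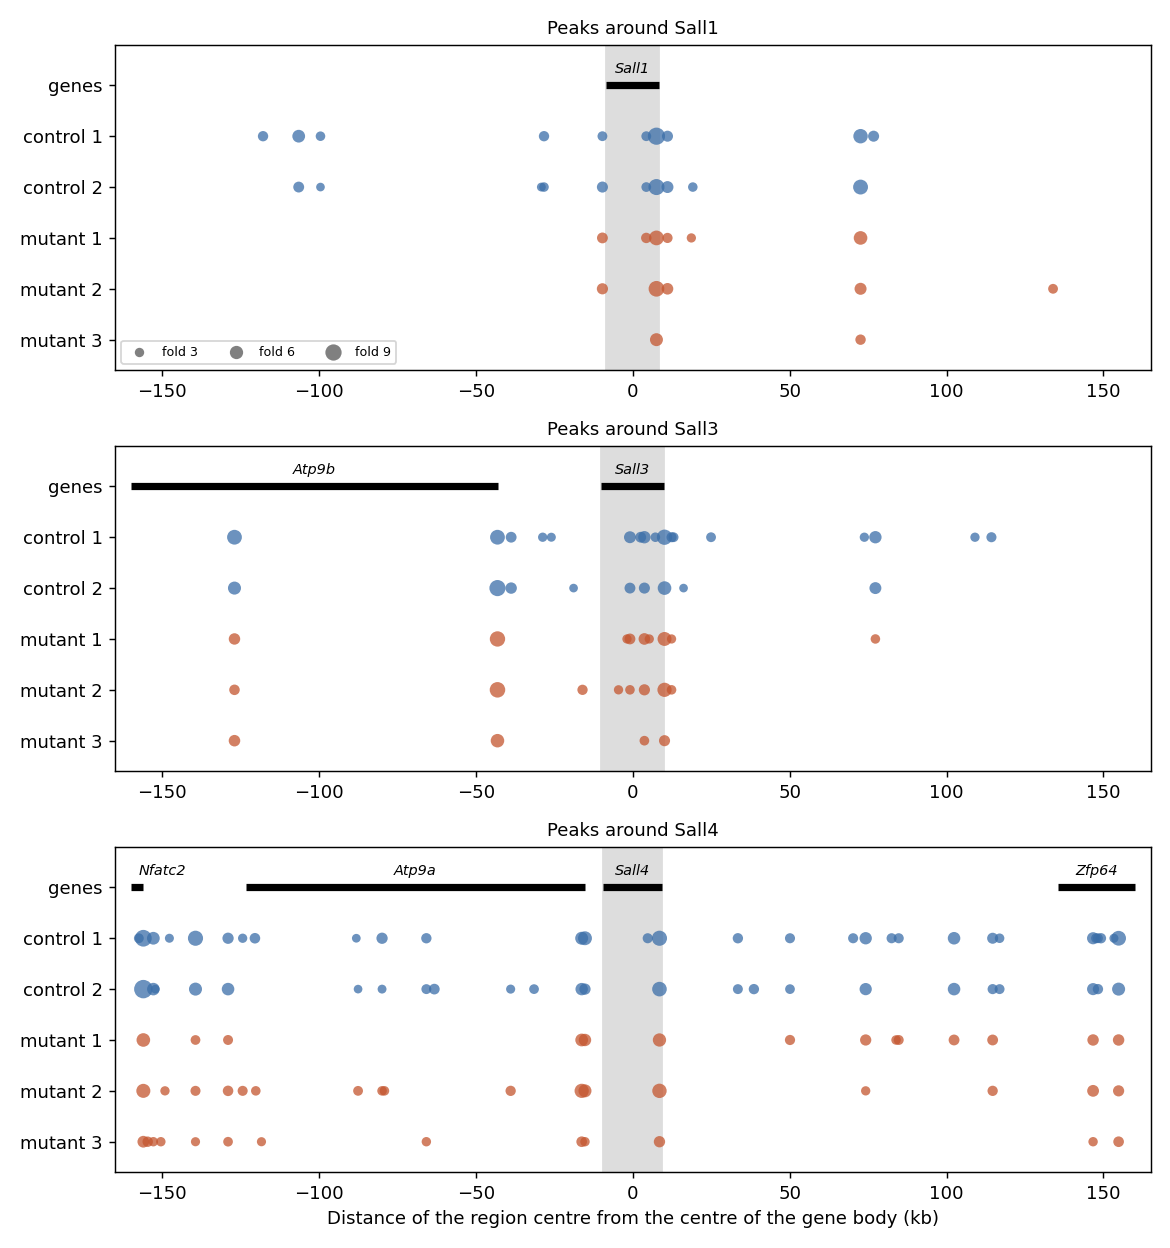
Position of every called region around Sall1, Sall3 and Sall4 in each library, as distance in kb from the centre of the gene body (grey band), with point area proportional to the fold and the bodies of protein-coding genes as black bars. Points at the higher-coordinate end of each gene recur in all 5 rows, and many of those farther out are seen in the control rows alone.

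Both controls shared 33 of the 80 regions. Among the 33, 7 regions (21.2%) lacked a peak in every mutant and 14 (42.4%) had a peak in all 3. The corresponding shares over the series were 30.4% and 43.4%, and with only peaks of a −log10 q of at least 5 the absent regions were 7 of 25, against 27.9% of the series. The share of absent Sall regions was thus lower than that of the series in the full lists and near it with the cut on q. The 7 regions were not the same in both cases. Some counted absent with the cut, such as the region 129 kb from Sall4, had mutant peaks of lower significance. Another 5 regions were missing in mutant 3 alone. The other 7 were found in only 1 mutant, 4 of them in mutant 1, 1 in mutant 2 and 2 in mutant 3. Mutants 1, 2 and 3 held 23, 20 and 16 of the 33, which is 69.7%, 60.6% and 48.5%, against 60.9%, 61.4% and 48.2% of all regions of both controls. Regions within 1 kb of an end of any protein-coding gene, called gene-end, numbered 8. None of them was absent from every mutant and 7 were in all 3, where the series has 4.64% absent and 81.3% in all. Of 25 distal regions, those farther from any gene end, 7 (28%) were absent from every mutant and 7 were in all 3, against 42% and 26.4% in the series. The count of 7 absent regions depended on the libraries and on list length: it was 16 of 44 without control 1 (series 41%), 29 of 58 without control 2 (series 47.8%) and 11 of 33 without mutant 1 (series 35.1%). With every list shortened to its 27194 strongest peaks it was 1 of 18, against 13.4% of all regions so treated.

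**Figure D3:**
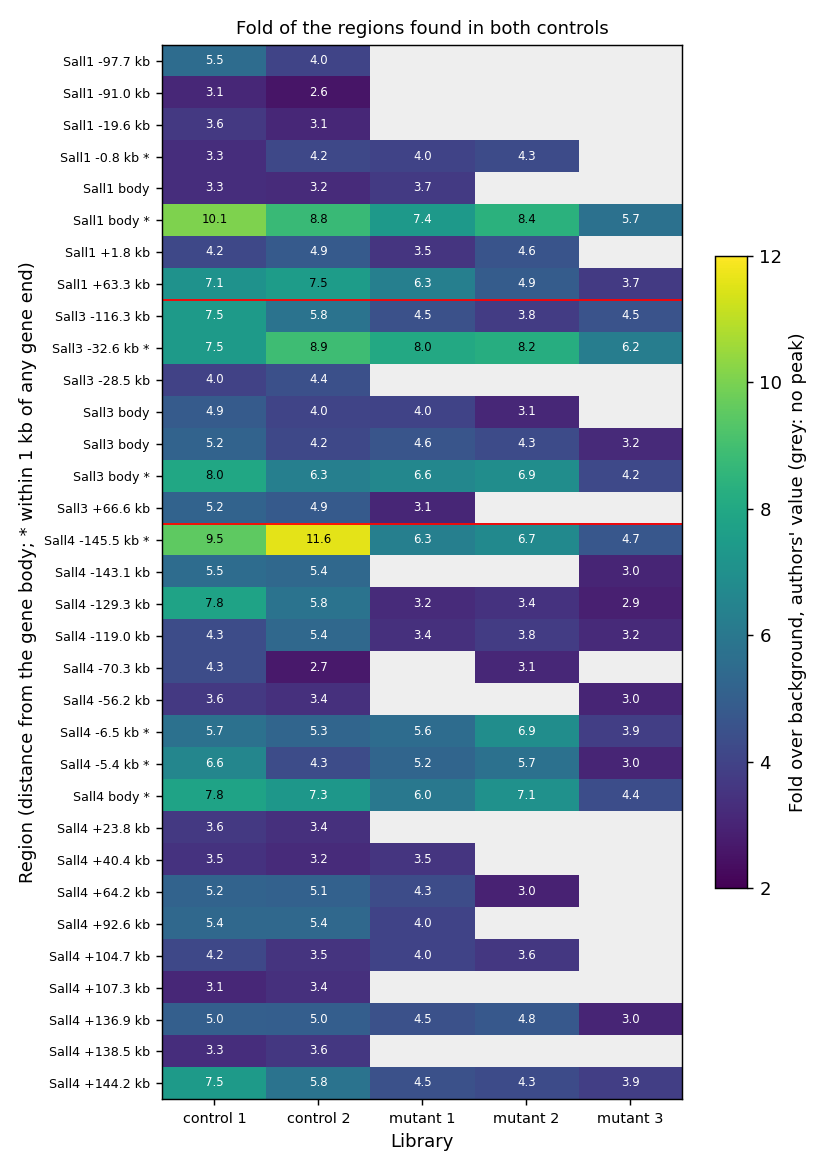
Fold over background of the 33 regions found in both controls, in rows ordered by position within Sall1, Sall3 and Sall4, for the 5 libraries in columns; grey cells have no called peak and an asterisk marks regions within 1 kb of a gene end. Of the 33 rows 14 are filled in every library and 7 are grey in all 3 mutants.

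Sall1 (chromosome 8, 89027242 to 89044162) lies alone, with no other protein-coding gene body within 150 kb. Its strongest region (89040727 to 89045732) spans the 3 starts printed above and was open in every library. It had folds of 10.1 and 8.76 in the controls against 7.41, 8.38 and 5.72 in the mutants, peaks of 57 and 64 fragments against 47, 50 and 33. In every list it was the strongest region of the Sall1 window. Peaks covered 4893 and 4610 bp of it in the controls against 4051, 3863 and 2974 bp in the mutants, as 1 peak in each control and 2 in each mutant. A region upstream of the gene, 63.3 kb from it (89107511 to 89109055), was next in strength and also open in every library. Its folds were 7.11 and 7.55 in the controls against 6.33, 4.93 and 3.70 in the mutants, and the covered length was 327 bp in mutant 3 against 932 to 1469 bp in the others. Just upstream of the starts (89045972 to 89047522, 1.81 kb from the body) the folds were 4.16 and 4.85 in the controls against 3.55 and 4.60 in mutants 1 and 2, with no peak in mutant 3. At the far end of the gene (89025555 to 89026458) the folds were 3.29 and 4.18 in the controls, 4.01 and 4.27 in mutants 1 and 2, and mutant 3 again had no peak. A region inside the body (89039668 to 89040303) had folds of 3.29 and 3.23 in the controls against 3.70 in mutant 1 alone.

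The 3 Sall1 regions without a peak in any mutant lay on the side beyond the end of the gene. The strongest, 97.7 kb away (88928843 to 88929558), had folds of 5.55 and 4.04 in the controls. The others lay 91.0 kb away (88935998 to 88936283, folds of 3.12 and 2.56) and 19.6 kb away (89007145 to 89007630, folds of 3.64 and 3.10). The one 91.0 kb away was narrow (286 bp) and close to the lowest fold of the lists. Thus 3 of 8 regions of both controls (37.5%) were absent, against 30.4% in the series. The count was 5 of 10 without control 1 (series 41%) and 5 of 10 without control 2 (series 47.8%). Mutant 3 held 2 of the 8, the start region and the one 63.3 kb upstream, against 48.2% of all regions of both controls. Mutants 1 and 2 held 5 and 4 of the 8, against 60.9% and 61.4%.

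Sall3 (chromosome 18, 80966989 to 80987021) shares its window with Atp9b, which encodes a phospholipid-transporting ATPase. The region at the higher-coordinate end of Sall3 (80985331 to 80988876) had folds of 7.98 and 6.33 in the controls against 6.63, 6.90 and 4.21 in the mutants. The region was called in all 5 lists. Peaks covered 3475 and 2728 bp in the controls against 3324, 3161 and 2521 bp in the mutants, so this region stayed broad in all 5 libraries. No region lay within 1 kb of the other end of Sall3, and the tables used give no strand for Sall3 or Sall4. The region at the near end of Atp9b (80933351 to 80934368), 32.6 kb from Sall3, was the strongest of the window in every list except that of control 1, with folds of 7.46 and 8.89 in the controls against 8.02, 8.21 and 6.22 in the mutants.

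Within the Sall3 body a region (80979859 to 80981516) was open in every library, with folds of 5.20 and 4.18 in the controls against 4.63, 4.27 and 3.20 in the mutants. A neighbouring region (80975573 to 80976604) had folds of 4.85 and 4.04 in the controls, 4.01 and 3.12 in mutants 1 and 2, and no peak in mutant 3. Farther out, a region in the Atp9b body 116 kb away (80849384 to 80850681) had folds of 7.46 and 5.79 in the controls against 4.47, 3.78 and 4.54 in the mutants. On the other side, 66.6 kb from the gene (81053663 to 81054977), the folds were 5.20 and 4.85 in the controls against 3.09 in mutant 1, with no peak in mutants 2 and 3. The single region of both controls without a peak in any mutant (80937986 to 80938457) lay 28.5 kb away between Atp9b and Sall3, with folds of 3.99 and 4.45. That is 1 of 7 regions (14.3%), against 30.4% in the series. The count was 3 of 10 without control 1 (series 41%), 10 of 17 without control 2 (series 47.8%) and 2 of 7 without mutant 1 (series 35.1%).

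Sall4 (chromosome 2, 168748332 to 168767201) has neighbours on both sides: Atp9a, a phospholipid-transporting ATPase gene, and the start of Nfatc2, a calcium-regulated transcription factor gene, on the lower-coordinate side, and Zfp64, a zinc finger gene, on the other. At its higher-coordinate end Sall4 had a region (168764898 to 168767609) with folds of 7.80 and 7.28 in the controls against 6.02, 7.06 and 4.37 in the mutants. It too was called in all 5 lists. Peaks covered 2656 and 2688 bp of it in the controls against 2080, 2315 and 1076 bp in the mutants, and mutant 3 had 3 separate peaks there where each control had 1. No region lay within 1 kb of the other end of Sall4. The only other region in the body (168762257 to 168762757) had a peak in control 1 alone, with a fold of 3.47.

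The regions at the Atp9a start, 5.39 and 6.51 kb from Sall4, were open in every library. The region at 5.39 kb (168742087 to 168742940), which holds the promoter window, had folds of 6.59 and 4.31 in the controls against 5.25, 5.75 and 3.03 in the mutants. Its percentiles in the common ranking described further on were 36.2 and 14.3 in the controls against 38.6, 40.3 and 2.43 in the mutants, so the groups overlapped, with mutant 3 lowest. The region at 6.51 kb (168741092 to 168741827) had folds of 5.72 and 5.25 in the controls against 5.55, 6.90 and 3.87 in the mutants. The Nfatc2 start region 146 kb away (168600682 to 168602803) was the strongest of the window in every list except that of mutant 2, where the Sall4 end region led. Its folds were 9.54 and 11.6 in the controls against 6.33, 6.73 and 4.71 in the mutants. The promoter windows of these neighbours, at chr2:168601608-168601907 for Nfatc2 and chr2:168742087-168742386 for Atp9a, both on the minus strand, are given because both regions had a peak in every library and of the pair the Nfatc2 region alone ranked lower in all mutants than in both controls.

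Nfatc2 start: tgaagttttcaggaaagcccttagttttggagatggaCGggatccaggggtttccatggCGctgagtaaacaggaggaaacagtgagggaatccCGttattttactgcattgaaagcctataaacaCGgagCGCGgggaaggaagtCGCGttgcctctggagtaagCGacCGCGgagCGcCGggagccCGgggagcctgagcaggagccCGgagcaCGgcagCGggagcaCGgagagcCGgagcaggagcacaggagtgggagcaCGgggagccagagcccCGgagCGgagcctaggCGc
Atp9a start: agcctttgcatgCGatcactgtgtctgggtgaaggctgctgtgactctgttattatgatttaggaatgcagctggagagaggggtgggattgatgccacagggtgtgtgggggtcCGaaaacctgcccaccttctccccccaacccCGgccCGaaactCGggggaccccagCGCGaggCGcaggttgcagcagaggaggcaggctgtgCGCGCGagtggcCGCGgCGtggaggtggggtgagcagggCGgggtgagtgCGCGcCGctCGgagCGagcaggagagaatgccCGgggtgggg

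With CpG in capitals, the windows held 23 CpG (Nfatc2) and 21 CpG (Atp9a), so the pair was much alike in CpG number, and neither held the GLI or the T-box motif. Peaks covered all 300 bases of the Nfatc2 window in every library. In the Atp9a window they covered 300 and 256 bases in the controls against 278, 280 and 0 in the mutants. The mutant 3 peak of that region, and so its fold and rank, thus came from outside the window.

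A pair of distal regions at the far sides of the Sall4 window were among its 5 strongest in the controls and were called in every mutant. One between Nfatc2 and Atp9a, 129 kb from Sall4 (168617651 to 168619081), had folds of 7.80 and 5.79 in the controls against 3.24, 3.45 and 2.86 in the mutants. Its covered length was 1245 and 1224 bp in the controls against 254, 456 and 266 bp in the mutants. It had a peak in 0 of 3 mutants with a −log10 q of at least 5 and in 1 of 3 with lists of equal length, and in both controls under either setting. The other, 144 kb away on the opposite side inside the Zfp64 body (168911436 to 168913763), had folds of 7.46 and 5.79 in the controls against 4.47, 4.27 and 3.87 in the mutants. Regions 119 kb away on the Atp9a side and 137 kb away in the Zfp64 body were also open in all 5 libraries. Of the intergenic regions between Sall4 and Zfp64, those 64.2 kb (168831447 to 168832523) and 105 kb away (168871909 to 168872997) were open in mutants 1 and 2. Those 40.4 kb (168807559 to 168808156) and 92.6 kb away (168859780 to 168860520) were open in mutant 1 alone, and none of these 4 had a peak in mutant 3. On the Atp9a side 3 regions of both controls were open in 1 mutant each, 143 and 56.2 kb away in mutant 3 and 70.3 kb away in mutant 2.

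The 3 Sall4 regions absent from every mutant all lay on the Zfp64 side and were weak. The one 23.8 kb away (168790976 to 168791519) had folds of 3.64 and 3.37 in the controls. The one 107 kb away (168874508 to 168874817) had folds of 3.12 and 3.37, and the one 138 kb away in the Zfp64 body (168905690 to 168906341) had 3.29 and 3.64. That is 3 of 18 regions (16.7%), against 30.4% in the series. The count was 8 of 24 without control 1 (series 41%), 14 of 31 without control 2 (series 47.8%), 5 of 18 without mutant 1 (series 35.1%) and 5 of 18 without mutant 3 (series 31.9%).

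A further 34 of the 80 regions had a peak in only 1 control, 24 in control 1 and 10 in control 2, and 29 of the 34 (85.3%, against 82.9% in the series) had none in any mutant. They made up 42.5% of the 80 regions, against 36.1% of all regions of the series, with a median width of 308 bp and folds of 2.56 to 4.16. The remaining 13 regions (16.3% against 11.8% in the series) had a peak in no control. Each of the 13 was found in a single mutant, 4 in mutant 1, 6 in mutant 2 and 3 in mutant 3, with folds of 2.86 to 3.70 and a median width of 212 bp. By gene they numbered 2 at Sall1, 4 at Sall3 and 7 at Sall4, and 3 of those at Sall3 lay in the Sall3 body. No region around the Sall genes was present in all mutants and neither control, a class that makes up 0.0484% of the series.

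Absence followed strength in the controls. Strength here is the mean percentile of the fold within the 2 control lists. The 14 regions open in all mutants had a strength of 63.6 to 93.9 (median 80.7), the 12 open in 1 or 2 mutants 25.8 to 73.0 (median 53.2) and the 7 open in none 8.12 to 64.0 (median 33.5). The ranges of regions open in all and in none overlap only between 63.6 and 64.0. There the Sall1 region 97.7 kb away was open in no mutant and the Sall3 body region was open in all 3. Region width went the same way, with medians of 1488, 822.5 and 486 bp. If each region had the series' rate of absence for its strength decile and class, 10.5 of the 33 would be absent, against 7 found. By gene these values were 3.03 against 3 for Sall1, 1.55 against 1 for Sall3 and 5.96 against 3 for Sall4. They are descriptions of these libraries, with no test.

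**Figure D4:**
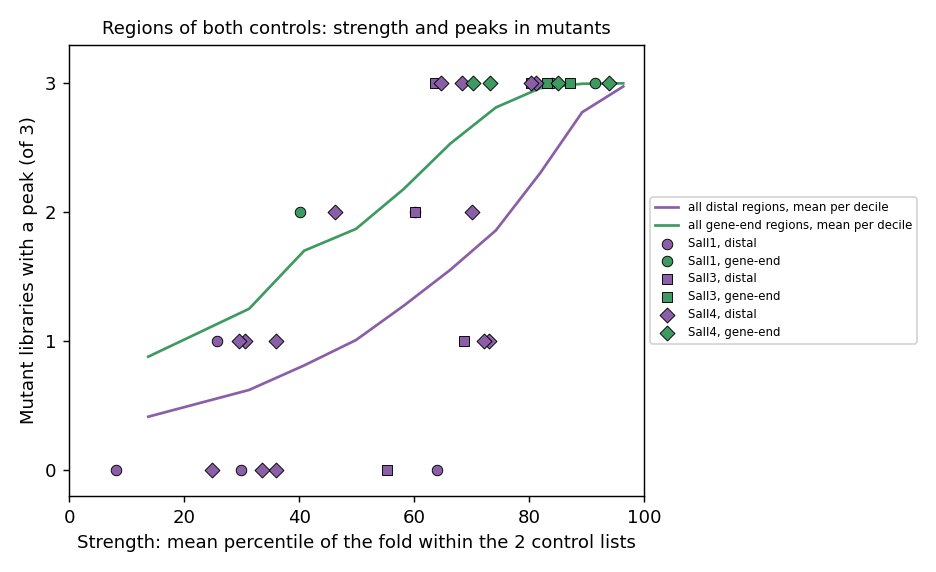
Strength of the 33 regions of both controls (mean percentile of the fold in the control lists) against the number of mutant libraries with a peak, with the mean number for all distal (purple line) and gene-end (green line) regions of the series by decile. Circles, squares and diamonds are Sall1, Sall3 and Sall4, and every region with a strength over 75 has a peak in all 3 mutants.

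To compare strength between lists of unequal length, folds were ranked among the 19579 regions with a peak in all 5 libraries, which include 14 Sall regions. A percentile of 100 is the strongest of these regions within a library. All 3 mutants ranked below both controls at 3 of the 14, against 11.6% of all such regions, and at none did all rank above, against 12.8%. The 3 were all in the Sall4 window, but 129 to 146 kb from the gene, so none lay in the narrower window of 100 kb. The region 129 kb from Sall4 went from percentiles of 51.8 and 36.1 in the controls to 2.25, 4.20 and 0.774 in the mutants, the widest gap of the 14. At the Nfatc2 start the percentiles were 70.7 and 88.4 against 55.5, 51.9 and 43.1. In the Zfp64 body 144 kb away they were 47.3 and 36.1 against 24.0, 17.5 and 23.4.

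At the regions on the ends of the Sall genes the groups overlapped in this ranking. The Sall1 start region ranked at 75.7 and 68.8 in the controls against 69.2, 69.0 and 58.7 in the mutants. For Sall3 the percentiles were 53.9 and 43.1 against 59.6, 53.7 and 32.1, and for Sall4 51.8 and 53.7 against 51.1, 55.6 and 36.1. In each of the 3 regions mutant 3 was the lowest library and at least 1 other mutant lay within or above the controls. Among the 7 distal regions the mutant mean was lower at 6, against 46.4% of all such distal regions. Their median difference was -15.5 percentile points, against 0.907, and -8.55 without control 2. All mutants ranked below both controls at 2 of 7, against 16.1%. Only the Sall1 region 63.3 kb away (difference -15.5) and the Sall3 body region (1.37) lay nearer than 116 kb. The other distal regions lay 116 to 144 kb from Sall3 or Sall4, with differences of -41.6 to -2.86. The distal values thus came mostly from the outer parts of the windows. Among the 7 gene-end regions the mutant mean was lower at 3, against 44.3%. Their median difference was 0.0196, against 0.931, and it ran from -5.55 (without mutant 1) to 8.21 (without mutant 3), and 1 of 7 had all mutants below, against 8.36%. Over all 14 the median difference was -5.86, and it was -1.25 without mutant 3.

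**Figure D5:**
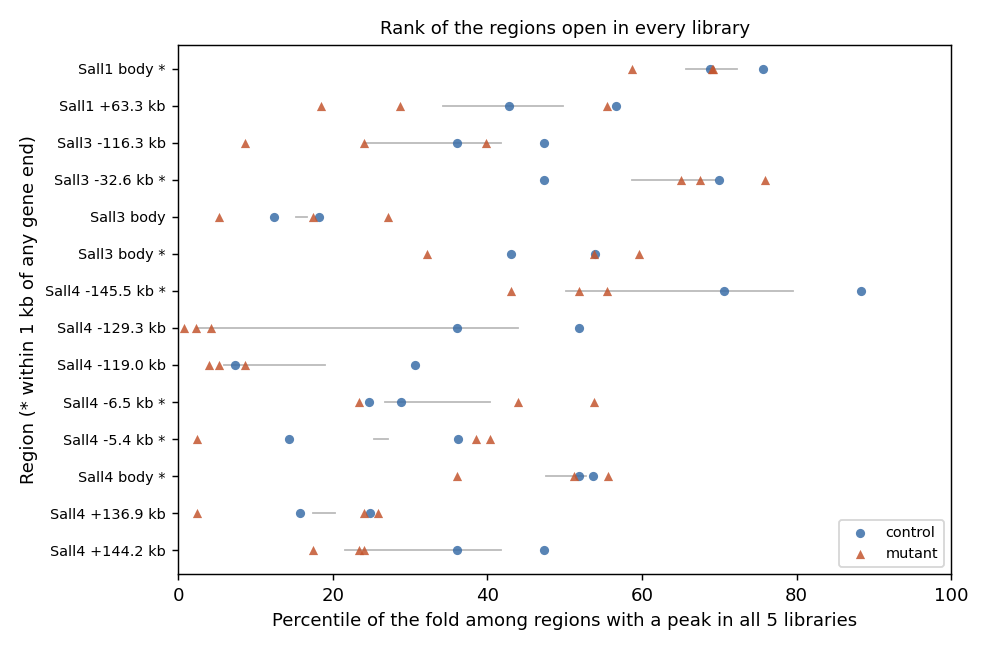
Percentile of the fold among the 19579 regions with a peak in all 5 libraries, for the 14 Sall regions of that set, with control libraries as blue circles, mutant libraries as orange triangles and a grey line between the group means. The orange triangles lie left of both circles at the regions 145.5, 129.3 and 144.2 kb from Sall4, and overlap the circles at the gene-end regions of Sall1, Sall3 and Sall4 themselves.

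The remaining family member, Sall2, which encodes a more diverged Sall protein, had 10 and 9 peaks in the controls against 10, 12 and 11 in the mutants, so the groups overlapped. All 8 of its regions of both controls, 3 of them gene-end, were open in every mutant, against 43.4% in the series, and with a −log10 q of at least 5 this was 6 of 7. Of 13 genes of the NuRD complex, the partner that Sall proteins recruit, 3 had fewer peaks in all mutants than in both controls, against 50.7% of all genes: Mta2, Mta3 and Mbd2. In the 13 windows, 23 of 245 regions of both controls (9.39%) lacked a peak in every mutant, against 30.4% in the series. Of these 245 regions 128 were gene-end, against 13975 of 45158 over the series. Gene-end regions of the series were absent at 4.64% and distal ones at 42%. The NuRD count was 10 of 13 without mutant 2 (74.4% of all genes) and 5 with a −log10 q of at least 5 (50.9%). Of a list of 10 limb patterning genes, Tbx5, Tbx4, Fgf10, Fgf8, Gli3, Zbtb16, Irx3, Irx5, Hoxd13 and Hand2, 8 had fewer peaks in all mutants, all except Irx3 and Hoxd13, against 50.7% of all genes. Within 50 kb 6 of the 10 did (35.3% of all genes), and in lists of equal length 0 of either list (6.44%). Tbx5, the forelimb factor upstream of Sall4, had 44 and 46 peaks in the controls against 25, 25 and 5 in the mutants. Zbtb16, which encodes the zinc finger repressor PLZF, had 33 and 28 against 11, 10 and 2. In this list 58 of 187 regions (31.0%) were absent from every mutant, against 30.4% of all regions and 21.2% in the Sall windows. Of the 187 regions 45 were gene-end. The lists were read as counts only, and the difference from the Sall genes was not tested.

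By Euclidean distance between the 5 peak numbers in the same window, the genes most like Sall1 were Fam168b (distance 1.41), Cep192 and Wwtr1 (1.73 each). Fam168b had 12 and 9 peaks in the controls against 9, 6 and 3 in the mutants. For Sall3 they were Btf3 (2.24), Abcc2 and Gm21976 (2.45 each, with 4 genes at or below that distance and ties broken by symbol), and for Sall4 Srpr (3.0), Itsn1 (3.16) and Zfp236 (3.32). These distances rest on 5 libraries. At the limit of the window, the last Sall4 region inside lay 148 kb away with a fold of 3.29 in control 1 alone, and the first outside lay 152 kb away with 3.12 in control 1 alone. On the other side of Sall4 the region 144 kb away described above was the last inside, and the next, 153 kb away, had a fold of 2.95 in control 1 alone. At Sall1 the outermost regions inside lay 109 kb (3.64 in control 1 alone) and 125 kb away (3.28 in mutant 2 alone), and the next outside 271 kb and 201 kb away. At Sall3 they lay 116 kb and 104 kb away inside, and 156 kb and 180 kb away outside.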

How the data were processed

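The submitters' processing notes name bcl2fastq 2.20.0, Bowtie2 2.3.5, MACS2 and the build mm10. For MACS2 the version and options, and for the reads any duplicate removal or cut-site shift, were not given in the sources used here. Without the shift, borders of peaks would be off by some bases, and duplicates would inflate pileups. The authors deposited 1 headerless peak list per library with start, end and summit (other values, in bp), a display score (deposited, not used further), a fold ratio, and p-values and q-values as −log10 in the deposited layout.

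Peaks overlapping by 1 bp or more were joined across the lists, without chromosome Y. Genes came from RefSeq, assembly GRCm38.p6 (21631 protein-coding genes, with no strand in that table). Where a list had several peaks in a region, the highest fold was used. Read depth is unknown. Folds lay on an even grid, (pileup + 1) divided by (background + 1), within 0.02 of a step for 100% of values, which gave backgrounds and fragment numbers. Each library is a separate embryo, grouped by genotype, and replicate numbers follow accession order. Peak numbers were compared with an exact two-sided permutation test.

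Members and lists were chosen with earlier results of these data known. Named were regions within 1 kb of a member's ends, the 5 strongest of both controls per gene, those absent from every mutant and those nearest the 150 kb limit. Other regions were named after their values were seen. Genes of similar pattern were the 3 nearest by Euclidean distance whose windows do not overlap. Alternatives were windows of 100 and 50 kb, a −log10 q of at least 5, lists of equal length, merging at 50% overlap, ranking within class and leaving out each library. Merging, window counts and the permutation test were tested on simulated data. Python 3.11.15, pandas 2.3.3, numpy 2.4.6 and scipy 1.17.1 were used.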

Additional observations from a re-analysis of the deposited data

How the results depend on the processing

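No paired analysis was possible because the labels give the libraries no replicate numbers. With every list shortened to 27194 peaks, the mutant minus control difference in peak number reversed at Sall1 (0.5) and Sall4 (1.5) and was -1 at Sall3. Regions of both controls absent from every mutant were then 0 of 2 at Sall1, 1 of 6 at Sall3 and 0 of 10 at Sall4, against 13.4% in the series. In those lists 0 NuRD genes and 0 limb genes had fewer peaks in every mutant, against 6.44% of all genes. When only peaks with a −log10 q of 5 or more were used, the absent regions were 1 of 4 at Sall1, 2 of 7 at Sall3 and 4 of 14 at Sall4 (series 27.9%). With this cut 5 of 13 NuRD genes were lower, against 50.9% of all genes. With windows of 50 kb the absent regions were 1 of 5 at each of the 3 genes. With 100 kb they were 3 of 8 at Sall1, 1 of 6 at Sall3 and 1 of 9 at Sall4, against 30.4% in the series. Leaving out 1 library gave 3 to 5 absent regions at Sall1, 1 to 10 at Sall3 and 4 to 14 at Sall4. The highest of each were reached without control 2, at 5 of 10, 10 of 17 and 14 of 31 (series 47.8%). The lowest were reached without mutant 2, at 3 of 8, 1 of 7 and 4 of 18 (series 36.4%). NuRD genes lower then numbered 3 to 10 and limb genes 8 to 10, while the share of all genes ran from 52.7% to 74.4%. The differences in peak number then ran from -6 to -3 at Sall1, -8.67 to -1.67 at Sall3 and -13.7 to -7.67 at Sall4, and the median rank difference from -8.69 to -1.25 over all 14 regions, -17.5 to -8.55 over distal and -5.55 to 8.21 over gene-end regions. Merging at 50% overlap changed no count of absent Sall regions, and ranking within class gave -8.12. Leave-outs for the ranks, and every alternative for the NuRD and limb lists, were chosen after seeing the data. A fold near the floor of 2.29 to 2.52 rests on 13 to 16 fragments, which limits every statement on absence.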
